A study of Mus musculus with 2 samples.

Results

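The 5 intervals of the mouse genome described here, 3 on chromosome 5 and 2 on chromosome 14, go by the working name of amplified multicopy blocks. A probe was a member when its mm9 start lay on chromosome 5 between 14.9 and 15.5 Mb, 26.32 and 26.6 Mb or 94.1 and 96.21 Mb, or on chromosome 14 between 4.0 and 7.5 Mb or 42.67 and 44.4 Mb. By this rule 328 of the 174638 genomic probes on the array were members. Of these, 323 had no outlier flag and an input signal well above background on both arrays, and these are the kept members used below, among 142569 kept probes in all. The intervals had been picked from measured values of these same arrays. Which values decided is not recorded, so the ratio of precipitate to input, the level of each channel and the differences between the arrays all count as used and are given as descriptions, with no test.

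The cells were mouse embryonic fibroblasts (MEFs) from C57BL/6 embryos at E14.5, and their DNA methylation was profiled by methylated DNA immunoprecipitation on tiling arrays (MeDIP-chip). Both cultures had been depleted, by magnetic beads, of cells bearing CD45, CD31, CD41 or c-Kit, and both grew on mitomycin-treated MEF feeder cells. One array held untreated MEFs and the other MEFs kept in 100 µM thymidine for 2 days, and a source label of the second also names a sort on CD45, a surface protein of blood cells. On each array DNA precipitated with an antibody to 5-methylcytosine (Cy5) was set against input DNA (Cy3). For the thymidine array the labels give the input's origin both as MEFs and as thymidine-treated cells, so which culture it came from is open. Nothing in the labels tells if feeder DNA was kept out. With 1 array per condition there was no spread between replicates and no p-value, and slide, scan, sort and treatment cannot be told apart.

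Segmental duplications are stretches of DNA present in several nearly identical copies, often side by side and holding families of related genes. On a tiling array a probe inside such a stretch can bind DNA from every copy, so its signal stands for the copies together. MeDIP recovers a fragment according to how many methylated cytosines it carries, so a ratio of precipitate to input reflects both the density of CpG sites and the share of them that are methylated. Chromosomes 5 and 14 of the mouse carry families of this kind. In the RefSeq gene table of GRCm38.p6, a later build, 11 of 15 genes with Speer symbols, which encode glutamate-rich proteins of spermatogenic cells, lay on chromosome 5, and 9 of these 11 were protein-coding. The same table placed 18 of 48 Pramel genes, relatives of the tumour antigen PRAME, on chromosome 5, with at most 4 next to each other in its order. It named 1 takusan gene, of a family linked to synapses, on chromosome 14. Because the table is of another build, no gene was assigned to a block, and whether the probes lie in exons, introns or between genes was not analysed here.

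The blocks differed in size and in the number of probes. The first block of chromosome 5 held 82 kept probes from 14914398 to 15440783, the second held 57 from 26330772 to 26584706, and the third held 77 from 94100191 to 96205074. On chromosome 14 the first block held 48 kept probes from 4126040 to 7120864 and the second held 59 from 42673638 to 44398420. The array covered the blocks in short clusters. A tiled region is a run of probes less than 1000 bp apart with at least 3 kept probes, and 318 of the 323 kept members fell into 45 such regions, out of 21518 on the array.

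The kept members had low ratios of precipitate to input on both arrays. Ratios are log2(Cy5/Cy3) of the processed signals, centred so that the median of all kept probes is 0. The median ratio of the 323 members was -2.77 in untreated and -2.41 in thymidine-treated MEFs. In untreated MEFs 264 members (81.7%) had a ratio of -1 or less, a level reached by 15.0% of all kept probes, and in treated MEFs 251 members (77.7%) did, against 11.3% of all. At -3 or less there were 144 members (44.6%) in untreated MEFs, against 1.72% of all kept probes, and 120 (37.2%) in treated MEFs, against 0.897%. Averaged over the arrays, the median ratio was -1 or less in 40 of 45 regions and in 4.23% of regions on the whole array, and 19 of the 45 were among the 100 lowest regions of the array. A ratio of 1 or more was found at 5 members (1.55%) in untreated MEFs, against 7.17% of all kept probes, and at 4 (1.24%) in treated MEFs, against 7.60%, all of them in the first block of chromosome 5.

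The blocks were not equally low. The first block of chromosome 5 had the lowest median ratio, -3.52 in untreated and -3.21 in treated MEFs. The second block of that chromosome followed with -3.04 and -2.77, and the third with -2.53 and -2.31. The second block of chromosome 14 had -2.26 and -1.90. The first block of chromosome 14 was the least low, at -1.38 and -1.31, and in untreated MEFs 27 of its 48 probes lay at -1 or less. The order of the 5 blocks was the same on both arrays, and neighbours in it lay closer together than the spread of probes within any of them, whose SD in untreated MEFs ranged from 1.35 to 1.92.

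Within the first block of chromosome 5 the 11 regions fell into 9 very low ones and a distal pair that was not. The lowest was the region from 14978403 to 14980106, with a median ratio of -4.26 in untreated and -3.60 in treated MEFs over 9 probes. Its precipitate was well above background on both arrays at 5 of these probes, so its median rests partly on uncertain ratios. The region from 14914398 to 14916070, the first of the block, had -3.81 and -3.48. At the other end, the region from 15389099 to 15390533 had ratios of -0.14 and 0.35 over 3 kept probes, and the region from 15439214 to 15440783 had 1.30 and 0.94 over 7. The latter is the highest of all 45 regions and among the highest of the array, at rank 21506 counted from the lowest. The input signal of both was below the array median, so these 2 distal regions share neither property of the other 9.

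The second block of chromosome 5 was the most even, with all 7 regions between -3.29 and -2.54 in the mean of both arrays. Its lowest region lay from 26330772 to 26332431, at -3.39 in untreated and -3.18 in treated MEFs, and its highest from 26348936 to 26350594, at -2.66 and -2.45. The third block of chromosome 5 held 13 regions, all at -1 or less. Its last region, from 96204355 to 96205074, was its lowest at -4.11 and -3.46 over 4 probes, and the region from 95938529 to 95939919 its highest at -1.71 and -1.58. In the lowest, 2 of the 4 probes had precipitate well above background on both arrays, with a median ratio of -1.96 and -1.42. Its place as the lowest thus rests partly on uncertain ratios.

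On chromosome 14 the regions of the first block ran from very low ratios to some of the least low in the blocks. The region from 4126040 to 4127318 had a ratio of -3.97 in untreated and -3.82 in treated MEFs over 5 kept probes, of which 2 had precipitate well above background on both arrays. Those 2 had a median ratio of -1.76 and -1.71, so the low value of this region rests on probes whose ratio is uncertain. The region from 6676668 to 6678204 had -0.72 and -0.74 over 7 probes, and 3 of the block's 7 regions lay above -1. In the second block of chromosome 14 all 7 regions were at -1 or less. The region from 42673638 to 42675365 was its lowest, at -3.13 and -2.64, and the region from 44185179 to 44186897 its highest, at -1.36 and -1.21.

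The edges of the intervals were checked against the nearest tiled regions outside them, as a description of where the rule cuts. Before the first block of chromosome 5 the nearest region outside had a ratio of 0.28 in untreated MEFs, where the first region inside had -3.81, and after it the nearest had -0.35, where the last inside had 1.30. Around the second block the outside regions had -0.20 and 0.28, and the first and last inside had -3.39 and -3.09. Around the third they had -0.013 and -0.30, against -2.60 and -4.11 inside, and around the second block of chromosome 14 they had -0.51 and -0.37, against -3.13 and -1.51. The lower end of the first block of chromosome 14 was not an edge in this sense. The region before it, from 3919325 to 3921017, had -2.54 in untreated and -2.57 in treated MEFs with an input level of 1.83, and was lower in ratio than 6 of the 7 regions inside. After this block the nearest region outside had -0.96 and -0.88.

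Each ratio rests on both channels, and in the blocks the input was bright while the precipitate was dim. Input and precipitate levels are log2 processed signals relative to the median kept probe of the same array and channel. The median input level of the members was 1.81 in untreated and 1.60 in treated MEFs, which is 3.51 and 3.02 times the array median. An input level of 1 or more was reached by 223 members (69.0%) in untreated MEFs, against 27.7% of all kept probes, and by 208 (64.4%) in treated MEFs, against 28.8%. The spots stood well clear of the slide, at a median of 42.2 and 40.7 times the local background, against 13.18 and 14.45 times for all kept probes, and none was saturated. The median precipitate level was -0.95 and -0.92, about 0.52 and 0.53 times the array median. Precipitate was well above background on both arrays for 212 members (65.6%), against 82.8% of all kept probes.

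Bright input and a very low ratio seldom met on the array. On the mean of both arrays, 60 members (18.6%) had an input level of 2 or more together with a ratio of -3 or less. This pair of values was found at 190 kept probes (0.133%) of the whole array, members included, so most such probes lay outside the blocks. Both values count as used in picking the intervals. Brightness varied by block. The first block of chromosome 5 was the brightest in input, at 6.33 times the array median in untreated and 5.14 times in treated MEFs, and its precipitate level was -0.90 and -0.94. The second block had 4.22 and 3.59 times the median input, with a precipitate level of -1.40 and -1.35. The third had only 1.88 and 1.45 times, with a precipitate level of -1.41 and -1.60. On chromosome 14 the first block had 2.99 and 2.94 times the median input and a precipitate level near the array median, 0.034 and -0.13. The second had 2.69 and 2.32 times, with -0.70 and -0.62. The first block of chromosome 14 was thus the one whose precipitate was about as bright as that of the array.

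The name amplified was set against the input of each region. In 31 of 45 regions (68.9%) the median input level was 1 or more in the mean of both arrays, against 11.6% of regions on the array, and in 3 (6.67%) it was below the array median, against 50.5%. Those 3 were the distal pair of the first block of chromosome 5, at -0.72 and -0.54, and the region of chromosome 14 from 44396818 to 44398420, at -0.15. Without these 3 regions the median ratio of the blocks was -2.86 in untreated and -2.51 in treated MEFs. In the third block of chromosome 5 only 4 of 13 regions reached an input level of 1. Input brightness also varies with the sequence of a probe, no second genotype or copy-number measurement was at hand, and the part of DNA copies in the brightness was not tested. The blocks are therefore called multicopy by name only.

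For members whose precipitate was not well above background, the ratio is uncertain, because the precipitate was not clearly told from background. The 212 members measured in both channels on both arrays had a median ratio of -2.09 in untreated and -1.73 in treated MEFs. The remaining 111 had -4.25 and -4.02. The size of the lowest ratios is therefore uncertain, while the low ratio as such was also present where both channels were measured. Other regions with a ratio of -1 or less, 871 regions with 4950 kept probes outside the blocks, served as the most similar part of the array. They had a median ratio of -1.86 and -1.57, an input level of 0.30 and 0.069 and a precipitate level of -1.78 and -1.80, and 49.8% of their probes were measured in both channels on both arrays. Compared at the same ratio, the members were brighter in input, and so in precipitate, since at a fixed ratio the channels rise together. Between -3 and -2 in the mean of both arrays, 77 members had a median input level of 1.62 and a precipitate level of -0.70, and 4292 probes outside the blocks had -1.26 and -3.69. Precipitate was measured on both arrays in 72.7% of these members and in 12.0% of the outside probes. Under -4 these shares were 12.9% of 70 members and 3.50% of 428 outside probes, so the lowest ratios were mostly uncertain in the blocks too.

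The rule for members did not use probe length. The array holds probes of 45 to 60 bases, and members were longer, with a median of 50 bases against 45. The shortest length, 45 bases, made up 101 of 323 members (31.3%) and 57.2% of all kept probes, and the longest, 60 bases, 61 members (18.9%) and 6.01% of all. Length differed by block, and 60.4% of the probes in the first block of chromosome 14 had 45 bases. Longer probes had lower ratios inside and outside the blocks. Outside the blocks the median ratio, as the mean of both arrays, was 0.16 at 45 bases, -0.18 at 46 to 52, -0.39 at 53 to 59 and -0.53 at 60. Members of the same classes had -1.75, -2.51, -3.11 and -3.12. Members were low in each length class, but the ratio counts as used in picking the intervals, so this was set beforehand. Because length and ratio go together outside the blocks, the lengths of the members are not independent of that picking either. The part of probe length in the low ratios was not tested. Input level fell with length both inside and outside the blocks, from 2.37 at 45 bases to 0.62 at 60 in the members and from 0.53 to -1.19 outside.

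Nor did the rule use the layout of the probes, but it named the intervals multicopy blocks. Repeated layouts are therefore not taken as independent of the picking. A region's layout is the spacing and length of its probes, and 9 of the 45 block regions (20.0%) had a layout found a second time, probe for probe, elsewhere on the array, against 0.773% of 21986 regions of at least 3 probes. Allowing for partial matches, 15 regions formed 6 families by sharing at least 4 probes of equal length and spacing with another block region. Such partial matches were sought among the block regions only. Their share over the whole array was not counted, so this count is not read as high or low. The rule for partial matches was set after the values of the regions had been seen. The families covered 38 probe positions and 90 probes. A pair lay in the first block of chromosome 14, from 5491423 and 6676668, and a family of 3 in the second block, from 43376243, 43693610 and 44185179. The first block of chromosome 5 held a family of 3, from 14937976, 15032508 and 15219590, and the second block a pair, from 26348936 and 26431333. The third block held a pair, from 94499201 and 96164822, and a family of 3, from 94954093, 95293305 and 95610407. No genome of the files' build was at hand, so whether the probes of a family are identical in sequence was not analysed here.

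Probes at the same position of different copies, meaning regions of a family, gave nearly the same ratio. The SD between copies was 0.17 in untreated and 0.15 in treated MEFs, and the SD across positions 1.45 and 1.39. Over 38 pairs from different regions the correlation was 0.99 on each array, and for the input level it was 0.997. Neighbouring probes of the blocks less than 300 bp apart, over 241 pairs, correlated at 0.24 and 0.26. The pairs share the array and perhaps the sequence, and these correlations are descriptions. At the 38 shared positions, ratios thus varied far more from position to position than between regions of a family. Precipitate was measured on both arrays in every copy at 29 of these positions, so the spread across positions rests partly on uncertain ratios. If probes of a family share their sequence, they do not report on separate places.

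The profiles along a region show this. In the pair of the second block of chromosome 5, the first shared position had -6.22 and -6.27 in untreated MEFs and -5.81 and -5.88 in treated MEFs. At the fourth shared position the same regions had -0.49 and -0.53 in untreated and -0.18 and -0.37 in treated MEFs. In the family of 3 of the second block of chromosome 14, the second position had -4.76, -4.75 and -4.75 in untreated MEFs and the third -1.25, -1.25 and -1.27. In treated MEFs these positions had -4.19, -4.08 and -4.14, and -1.08, -1.13 and -1.21. The precipitate was not well above background at the lowest position of either family on any copy. The largest gap between copies, 1.096 in untreated MEFs, lay at the fifth position of this family, where the region from 44185179 had -1.76 and the others -2.68 and -2.86. The input level there was -0.26 in that region and -0.64 and -0.62 in the others. In the family of the first block of chromosome 5, where the precipitate was measured at every shared position, the first position had -4.08, -4.15 and -3.99 in untreated and -3.55, -3.52 and -3.64 in treated MEFs.

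The arrays were then compared at the members, as the ratio in thymidine-treated minus that in untreated MEFs. The median difference over the 323 members was 0.34, with an order-statistic 95% interval over probes of 0.29 to 0.36, and the median of all kept probes was 0.066. The interval is one of the median over probes, which are no replicates of a condition. It treats probes as independent, although some members share positions in the copies described above. The quartiles of the members' differences were 0.091 and 0.50. The ratio was higher on the thymidine array at 267 members (82.7%), against 57.5% of all kept probes. A difference of 0.5 or more was seen at 83 members (25.7%), against 11.0% of all, and one of -0.5 or less at 2 members (0.619%), against 4.43%. Single differences of at least 1 were as rare as elsewhere or rarer, with 2 members (0.619%) higher, against 1.07%, and 0 lower, against 0.0926%. At 7 members (2.17%) the difference exceeded 2 of the scanner software's own errors, and 2.95% of all kept probes did so. The shift was thus small at each probe and shared by most of them.

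This direction did not hold under every processing. With quantile normalisation between the arrays the median difference of the members was -0.045, and after the dependence of the difference on the ratio level across the array was removed it was -0.063. In the authors' deposited table, centred the same way, it was -0.042, with 136 of 323 members (42.1%) higher, against 51.7% of all kept probes. It stayed positive with raw median signals (0.34), loess (0.32) and normexp background correction (0.21). The blocks cannot therefore be said to be higher or lower on the thymidine array.

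All blocks but the first of chromosome 14 had closely similar differences. The median difference was 0.35 in the first, 0.33 in the second and 0.34 in the third block of chromosome 5, and 0.39 in the second block of chromosome 14, where 55 of 59 probes were higher. In the first block of chromosome 14 it was 0.098, with 28 of 48 probes (58.3%) higher, near the 57.5% of all kept probes. With quantile normalisation all 5 were below 0, from -0.18 in the first block of chromosome 14 to -0.017 in the third block of chromosome 5. The authors' deposited table put every block below 0 except the second of chromosome 14, at 0.044. Among probes of 45 bases the first block of chromosome 14 had -0.033 and the others 0.20 to 0.38. That block had the lowest of the 5 differences under every setting run by block.

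By channel, the difference came with a lower input and little median change of the precipitate. The input level of the members changed by a median of -0.23 from the untreated to the thymidine array, against 0.014 for all kept probes. It was lower at 267 of 323 members (82.7%), against 48.1% of all kept probes. A lower input was also seen at low ratios outside the blocks. In the outside regions with a ratio of -1 or less the median input change was -0.21, with 3759 of 4950 probes lower. Between ratios of -3 and -2 it was -0.31 in 77 members and -0.47 in 4292 outside probes. The median change of the precipitate was -0.0039 for the members, with 165 (51.1%) lower, and 0.012 for all kept probes, with 47.2% lower. Members measured in both channels on both arrays had an input change of -0.21 and a ratio difference of 0.33, with 178 of 212 (84.0%) higher, against 54.7% of all kept probes so measured. The median input change was most negative in the third block of chromosome 5, at -0.26, and least in the first block of chromosome 14, at -0.12. The labels leave the origin of this array's input open, and its part in this was not tested.

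In all, 3 of the 45 regions (6.67%) had a median probe difference of 0.5 or more with at least 80% of probes of that sign, as had 0.706% of regions on the array, and 0 had one of -0.5 or less, against 0.0558%. Under normexp, quantile normalisation, removal of the level trend, 45-base probes alone and the authors' deposited table, the count of such regions was 0, and it was 1 with no filter on dim probes, with blocks trimmed by 50 kb or without the third block of chromosome 5. The difference of a region is the median over its probes and can differ from the difference of its medians. The region from 96204355 to 96205074 in the third block of chromosome 5 had 0.61, with 4 of 4 probes higher. Only 2 of its probes had precipitate well above background on both arrays, with a median difference of 0.54. The size of its difference and its place among the regions thus rest partly on uncertain ratios. The region from 94954093 to 94955485 in the same block had ratios of -2.60 and -2.08 and a difference of 0.52 over 4 probes, 3 of them measured in both channels on both arrays. The other copies of its family, from 95293305 and 95610407, had differences of 0.30 and 0.30. The first region of the first block of chromosome 5, from 14914398, had a difference of 0.51 with 7 of 8 probes higher, and 5 of the 8 were so measured. Next came the regions of this block from 14943996 to 14945649, with ratios of -3.11 and -2.49 and a difference of 0.46, and from 15123622 to 15125407, with -2.97 and -2.82 and 0.44.

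At the other end, 42 of 45 regions (93.3%) had a difference above 0, against 65.1% of all regions, and the 3 below 0 all lay in the first block of chromosome 14. The region from 6240142 to 6241574 had ratios of -1.08 and -1.27 and a difference of -0.17. The paired regions from 5491423 to 5492959 and from 6676668 to 6678204 had -0.15 and -0.019, with ratios of -0.73 and -1.01 in the former. The region from 7119291 to 7120864 had -1.45 and -1.68 and a difference of 0.094, and the distal region from 15439214 of chromosome 5 had 0.0044. By the authors' deposited table, centred the same way, 28 of the 45 regions (62.2%) were lower on the thymidine array, against 47.1% of all regions.

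Copies agreed less in the difference than in the ratio. Over the same 38 pairs the differences of 2 copies correlated at 0.62, and those of neighbouring probes at 0.067. The SD between copies was 0.18 and the SD across positions 0.28. At 28 of 38 positions every copy was higher on the thymidine array, at 4 every copy was lower, and at 6 the copies had opposite signs. The spread between copies, of spots on the same arrays, compares with a median difference of 0.34 and does not include the spread between cultures.

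The members were also set beside outside probes of the same class of ratio level. Outside the blocks low ratios also came with higher ratios on the thymidine array. Among probes with a mean ratio between -3 and -2 the median difference was 0.37 in 77 members and 0.50 in 4292 outside probes, and between -4 and -3 it was 0.37 in 59 members and 0.49 in 1098 outside probes. Under -4 it was 0.35 in 70 members and 0.39 in 428 outside probes. Of the outside probes in these classes only 12.0%, 7.65% and 3.50% had precipitate measured on both arrays. Among the members 72.7%, 62.7% and 12.9% did, so most of the outside values are differences between uncertain ratios. Among probes measured in both channels on both arrays the median difference was 0.37 in 56 members and 0.46 in 517 outside probes between -3 and -2, and 0.38 in 37 and 0.40 in 84 between -4 and -3. Under -4 the order was turned, with 0.52 in 9 members and 0.41 in 15 outside probes. At these levels the blocks are therefore not placed above or below the outside probes. Between -2 and -1 the values were 0.33 in 53 members and 0.31 outside, and between -1 and 0 they were 0.23 in 49 members and 0.070 outside. In the class from -1 to 0 the levels were not matched, with a median ratio of -0.60 in the members and -0.355 outside. At a ratio of 0 or more the difference was -0.054 in 15 members and 0.010 in 71224 outside probes. At equal input level, but not at equal ratio, the members had the larger difference in every class. Among probes with an input level between 2 and 3 the median difference was 0.33 in 93 members and 0.018 in 11523 outside probes, and at 3 or more it was 0.42 in 39 members and 0.11 in 7781. In these classes the input itself changed by -0.31 and -0.43 in the members and by 0.078 and 0.022 outside. The median ratio in them was -2.74 and -3.21 in the members and 0.19 and 0.21 outside. The ratio level was thus not matched, and its part in the larger difference was not tested.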

How the data were processed

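Both arrays were scanned with Agilent Feature Extraction, version 11.0.1.1, with a grid of mm9, per the file headers. The deposited intensity values, per the file headers, are raw medians and processed signals, which have local background taken off and a linear dye factor applied. The deposited log10 ratios equalled those of the processed signals within 1e-06 at 97.4% and 96.9% of probes. The LogRatioError score is the software's own error, per the file headers. The authors' deposited table holds log ratios taken here as log2 values made by the authors. The sources used here do not name their base, normalisation or smoothing. The base was read from their slope, which was 0.93 and 1.07 against the mean raw log2 ratio within 300 bp (correlation 0.94 on each array).

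Here the log2 ratio of processed Cy5 to Cy3 signals was centred on the median of the kept probes, with no loess or quantile step. Probes were kept without outlier flags (57 flagged) and with input well above background on both arrays. The members, the region rule, the classes and the copy rule were chosen with earlier results of these data known. Regions named are, in each block, those of lowest and highest mean ratio, and over all blocks the 5 highest and 5 lowest differences. Other regions were named after their values were seen, for the edges, the copies and the input check. No test was possible with 1 array per condition. Alternatives were normexp (offset 50) and loess in limma 3.58.1 (R 4.3.3), quantile normalisation, raw signals, other filters, 45-base probes, trimming blocks by 50 kb and leaving out each block. Summaries used Python 3.11.15, pandas 2.3.3 and numpy 2.4.6, and were checked on simulated data.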

Additional observations from a re-analysis of the deposited data

How the results depend on the processing

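The low ratio kept its sign under every alternative run, and the difference between the arrays did not. No paired analysis was possible because each condition had 1 array. Settings are compared with median ratios of -2.77 (untreated) and -2.41 (thymidine), a difference of 0.34, an input level of 1.71 and a precipitate level of -0.97 in the mean of both arrays, 2 probes of a difference of at least 1 and 3 regions past 0.5. Normexp gave -1.74, -1.47, 0.21, 1.39 and -0.57, with 0 probes and 0 regions. Probes of 45 bases gave -2.17, -1.75, 0.24 and a precipitate level of -0.37, with 0 probes and 0 regions. Both channels well above background gave -2.23, -1.87, a precipitate level of -0.55 and 1 probe, with 4 of 39 regions. The settings that changed the filter or the probe length were centred anew on the probes they kept. Under the main centring the same members had -2.01 and -1.60 at 45 bases, and -2.09 and -1.73 with both channels measured. Raw median signals gave -2.29 and -1.91. Quantile normalisation gave -2.51, -2.68 and a difference of -0.045, with 1 probe and 0 regions, and the authors' deposited table -2.03, -2.10 and -0.042, with 0 and 0. Removal of the level trend gave -0.063, with 1 probe and 0 regions, and loess 1 probe and 4 regions. No filter on dim probes gave an input level of 2.11, a precipitate level of -0.44 and 1 region. One value per region gave an input level of 1.32 and 0 regions with a median difference of at least 1. Trimming by 50 kb took away counted regions and left 1 region. Without the first block of chromosome 5 the treated ratio was -2.12, the input level 1.44 and the count 1 probe. Without its second block 1 probe was left, and without the third block the input level was 1.95 with 1 region. Over the 5 left-out blocks the difference ranged from 0.30 to 0.35. Both alternatives chosen after seeing the data, leaving out regions of input below the array median and keeping 1 region per copy family, left the 5 medians within their intervals and the counts of probes and regions as they were. Loess, quantile normalisation, the level trend and the authors' table give no channel levels. The cause of the reversals was not tested. The precipitate stood at a median of 4.78 and 4.05 times local background in the members, against 8.24 and 6.85 times for all kept probes. Its part in the lowest ratios was not tested.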
